A study of Mus musculus with 10 samples.

Results

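The genes described here encode inhibitory immune checkpoints, 10 in all: the receptors Pdcd1 (PD-1), Lag3, Havcr2 (TIM-3), Tigit, Ctla4, Btla and Cd200r1, and the ligands Cd274 (PD-L1), Pdcd1lg2 (PD-L2) and Lgals9 (galectin-9). They were found by their symbol in the annotation of the array platform among 19176 named genes that could be tested, and each was represented by 1 probe set. The data are total RNA profiles of whole B16OVA tumors, grown under the skin of young adult female C57BL/6 mice from a melanoma line that carries ovalbumin as a model antigen. In the BO-112 group (5 mice) the tumors were injected with BO-112, a nanoplexed formulation of Poly I:C, a mimic of viral double-stranded RNA, with polyethylenimine, and in the Vehicle group (5 mice) with the same volume of the 5% glucose vehicle. Per the study's methods the tumors for RNA were taken after the second injection. Each mouse gave 1 Clariom S Mouse array, so p-values measure the spread between mice, and mice carry the number of their label within a group.

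Checkpoint receptors restrain activated T cells and NK cells once a ligand on a tumor cell, a myeloid cell or another lymphocyte engages them. Several of the receptors are themselves induced by activation, and transcription of Cd274 and Lgals9 is known to respond to interferons. Antibodies that block PD-1, PD-L1, CTLA-4 or LAG-3 are used against melanoma, which is why these genes are often read beside an intratumoral treatment.

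Every level below is a log2 expression value after Robust Multichip Average (RMA) normalization, and every difference is BO-112 minus Vehicle, tested with limma and Benjamini-Hochberg adjustment over 21792 probe sets (called at an adjusted p under 0.05). Levels of different genes are not compared, because each probe set has its own brightness. The level of background is taken as the 75th percentile of the negative control probe sets of the same array, which lay between 6.11 and 6.21 in BO-112 and between 6.07 and 6.30 on the Vehicle arrays. Array medians ran from 6.25 to 6.43. Melanocyte markers were above background for 11 of 11 genes, with a mean level of 10.17 to 11.50 in BO-112 and 11.41 to 11.61 in Vehicle tumors, the lowest being BO-112 mouse 5. That tumor also carried the most muscle RNA, with a muscle marker score of 11.0, while the other BO-112 tumors spanned 6.02 to 8.95 and the Vehicle tumors 5.98 to 9.26. BO-112 mouse 2 had the highest keratinocyte score, 9.26. The array contrast is how often, over all pairs, positive controls were brighter than negative controls, as a fraction. It was lowest in BO-112 mice 2 and 5 (0.845 and 0.855, against 0.867 to 0.891 on the Vehicle arrays).

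Of the 10 checkpoint genes, 3 were called higher in BO-112 tumors (Cd274, Lag3 and Lgals9) and 0 lower. Among all probe sets tested 2.43% were called higher and 2.79% lower. All 10 passed the filter on low values. The groups did not overlap for 4 of the 10, the called genes and Pdcd1, where 3.39% of all probe sets were without overlap and higher in BO-112. An unadjusted p under 0.05 with a higher BO-112 level was reached by 6 of 10, against 10.9% of all probe sets. With B over 0, the rule of the study's methods, 2 of 10 were called higher (Cd274 and Lag3), against 1.23%. The median log2 fold change of the 10 was 0.59, beside 0.01 over all probe sets. The estimate was above 0 for 10 of 10, where 52.3% of all probe sets lay above 0, but those of Pdcd1lg2 and Btla turned to -0.02 and -0.01 when each array was centred on its median. With the array contrast as a covariate, limma called 0 of the 10 and 3 had an unadjusted p under 0.05. Calls over all probe sets were also fewer in that fit, as given in the last section. The estimates were 2.43 for Cd274, 1.13 for Lag3 and 0.999 for Lgals9. In a whole tumor, more cells of a type and more RNA per cell cannot be told apart.

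**Figure D1:**
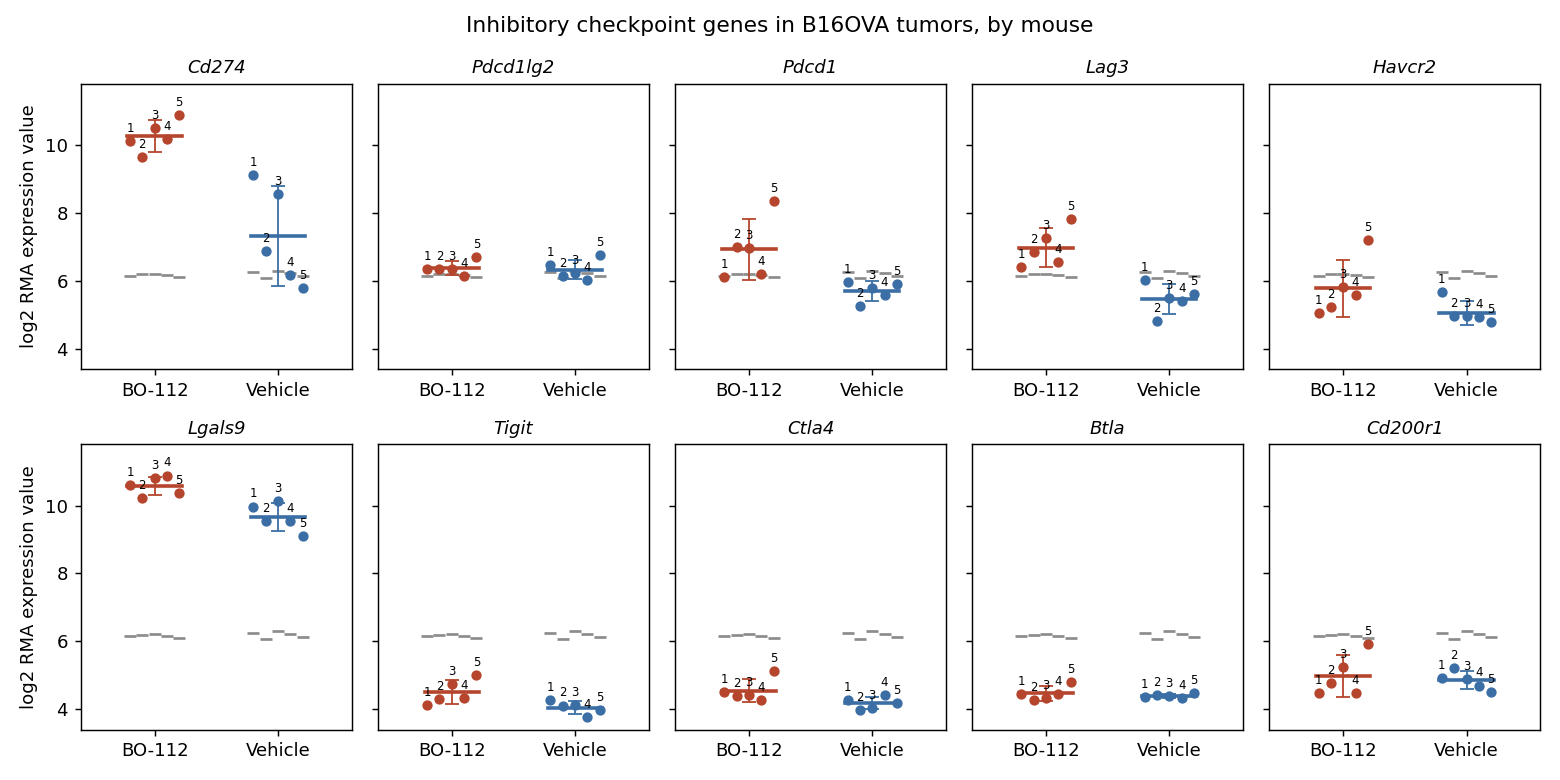
Log2 RMA expression value (vertical axis) of the 10 checkpoint genes in BO-112 (red, left) and Vehicle (blue, right) tumors. Each point is a mouse with its number, bars are the mean ± SD (n = 5), and grey dashes mark the 75th percentile of the negative controls of each array. Cd274, Lag3, Lgals9 and Pdcd1 show no overlap between the groups, while Tigit, Ctla4, Btla and Cd200r1 lie below the grey dashes on all 10 arrays.

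Cd274 encodes PD-L1, the PD-1 ligand that tumor cells and myeloid cells can display. It stood at 10.10, 9.65, 10.50, 10.18 and 10.88 in BO-112 mice 1 to 5, and at 9.12, 6.89, 8.56, 6.17 and 5.79 in Vehicle mice 1 to 5. The BO-112 tumors were alike and all above the highest Vehicle tumor, by at least 0.53, whereas the Vehicle tumors were spread out, with mice 1 and 3 high and mice 4 and 5 below the level of the negative controls. The mean was 10.26 ± 0.46 in BO-112 and 7.31 ± 1.47 in Vehicle tumors (SD, n = 5 each). This was a log2 fold change of 2.96 (SE 0.58, 95% interval 1.68 to 4.23, limma adjusted p = 0.0193), or 7.76-fold with an interval of 3.21 to 18.7. In size it ranked 28 among the 21792 estimates. The call of Cd274 was lost when either of 2 low Vehicle tumors was left out, the limma adjusted p being 0.0565 without Vehicle mouse 2 and 0.0536 without Vehicle mouse 4.

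Pdcd1lg2 encodes PD-L2, the second PD-1 ligand, better known from dendritic cells and macrophages. Its values were 6.35, 6.35, 6.35, 6.14 and 6.70 in BO-112 mice 1 to 5, and 6.46, 6.13, 6.24, 6.03 and 6.74 in Vehicle mice 1 to 5. The groups covered the same range, close to the negative controls, which it exceeded on 4 of 5 BO-112 and 3 of 5 Vehicle arrays. The log2 fold change was 0.06 (95% interval -0.27 to 0.39, limma adjusted p = 0.835). The change of the one ligand was set against that of the other within each array. Cd274 minus Pdcd1lg2 was 3.88 ± 0.37 in BO-112 and 0.98 ± 1.51 in Vehicle tumors (SD, n = 5 each), a difference of 2.90 with an interval of 1.29 to 4.50. It was larger in every BO-112 tumor than in any Vehicle tumor (two-sided exact permutation p = 0.00794, the smallest that 5 against 5 can give, adjusted over 6 such comparisons 0.0238). Pdcd1lg2 lay close to background in both groups, so this difference largely repeats the change of Cd274. It does not measure how far Pdcd1lg2 itself changed.

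The 2 ligand genes are neighbours on chromosome 19, and the windows around their annotated starts are shown with that of Lgals9 because these are the ligands, of which Cd274 and Lgals9 were called and Pdcd1lg2 was not. The sequences are RefSeq promoter windows of GRCm38.p6, from 250 bases before to 50 after the start, read 5′ to 3′ on the strand of the gene: chr19:29367188-29367487 (plus) for Cd274, chr19:29410669-29410968 (plus) for Pdcd1lg2 and chr11:78984875-78985174 (minus) for Lgals9. Capitals mark matches, on either strand, to the interferon regulatory factor core AANNGAAA or to the interferon-stimulated response element GAAANNGAAA, which contains the core.
Cd274: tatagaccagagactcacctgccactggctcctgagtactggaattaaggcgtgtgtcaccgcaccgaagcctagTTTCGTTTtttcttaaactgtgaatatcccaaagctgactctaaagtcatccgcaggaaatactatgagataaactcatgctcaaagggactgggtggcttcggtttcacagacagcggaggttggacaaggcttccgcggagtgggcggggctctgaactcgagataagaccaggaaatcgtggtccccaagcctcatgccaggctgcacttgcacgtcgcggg
Pdcd1lg2: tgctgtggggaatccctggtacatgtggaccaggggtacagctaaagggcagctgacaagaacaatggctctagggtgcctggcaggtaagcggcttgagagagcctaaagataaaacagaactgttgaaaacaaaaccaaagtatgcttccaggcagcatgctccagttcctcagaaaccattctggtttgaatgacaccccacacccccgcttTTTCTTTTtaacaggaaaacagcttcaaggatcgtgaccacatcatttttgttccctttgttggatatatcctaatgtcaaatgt
Lgals9: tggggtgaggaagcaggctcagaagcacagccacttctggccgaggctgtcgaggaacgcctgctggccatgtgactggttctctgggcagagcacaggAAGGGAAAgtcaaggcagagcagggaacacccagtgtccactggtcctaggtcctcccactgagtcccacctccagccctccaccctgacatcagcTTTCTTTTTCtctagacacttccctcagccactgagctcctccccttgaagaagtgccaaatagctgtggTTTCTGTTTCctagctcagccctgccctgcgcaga

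Windows were found for 8 of the 10 genes. The Lgals9 window held the response element at 55 to 46 bases before the start and again at 15 to 24 bases after it, and was the only 1 of the 8 to do so, where 3.44% of 32851 RefSeq windows hold it. The core was in 4 of 8 windows, against 23.9% of all: Cd274 at 175 to 168 bases before the start, Pdcd1lg2 at 35 to 28, Pdcd1 at 28 to 21, and Lgals9. Thus the core was present in the window of the called ligand Cd274 and in that of Pdcd1lg2, which was not called. These are matches of letters in short windows and describe no binding.

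Pdcd1 encodes PD-1, the receptor of both ligands on activated T cells. It read 6.12, 6.99, 6.97, 6.20 and 8.34 in BO-112 mice 1 to 5, and 5.95, 5.25, 5.78, 5.58 and 5.91 in Vehicle mice 1 to 5. Every BO-112 tumor was above every Vehicle tumor, by a margin of 0.17, and BO-112 mouse 5 was far above the others. The log2 fold change was 1.23 (SE 0.36, 95% interval 0.44 to 2.01), and it did not pass the test (limma adjusted p = 0.0684). Pdcd1 passed without BO-112 mouse 4 or 5 (limma adjusted p 0.029 and 0.0499). It was above background on 4 of 5 BO-112 arrays and 0 of 5 Vehicle arrays. Where a gene was under background on all arrays of a group, a lower bound was set for the fold between the group means. For this the level of each such array was put at the higher of its background level and the gene's own value. The bound makes no allowance for the spread between mice. For Pdcd1, which did not pass the test, it was 1.66-fold, within the limma interval of 1.36 to 4.03-fold.

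Lag3 encodes a receptor of activated T cells and NK cells that binds MHC class II, and its values were 6.41, 6.85, 7.26, 6.54 and 7.81 in BO-112 mice 1 to 5, and 6.02, 4.81, 5.50, 5.40 and 5.62 in Vehicle mice 1 to 5. It was above background on 5 of 5 BO-112 arrays and 0 of 5 Vehicle arrays, and the groups were apart by 0.39. Lag3 averaged 6.97 ± 0.57 in BO-112 and 5.47 ± 0.44 in Vehicle tumors (SD, n = 5 each), a log2 fold change of 1.50 (SE 0.28, 95% interval 0.89 to 2.12, limma adjusted p = 0.0155). With the Vehicle arrays held at background, the lower bound for the means of Lag3 was 1.72-fold. Lag3 stayed called when any single mouse was left out (10 of 10 such fits).

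Havcr2 encodes TIM-3, found on exhausted T cells and also on dendritic cells and macrophages. Its values were 5.04, 5.23, 5.81, 5.58 and 7.18 in BO-112 mice 1 to 5, and 5.66, 4.95, 4.94, 4.93 and 4.77 in Vehicle mice 1 to 5. Only BO-112 mouse 5 exceeded background, and Vehicle mouse 1 lay above 3 of the 5 BO-112 tumors, so the groups overlapped. Havcr2 did not pass the test (limma adjusted p = 0.227), and no fold is given for it.

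Lgals9 encodes galectin-9, a secreted lectin that binds TIM-3 among other glycoproteins. It measured 10.60, 10.23, 10.80, 10.88 and 10.36 in BO-112 mice 1 to 5, and 9.97, 9.55, 10.13, 9.53 and 9.10 in Vehicle mice 1 to 5. All 10 arrays were well over background and the groups were apart by 0.10, with Vehicle mice 1 and 3 the nearest to the BO-112 tumors. The mean was 10.58 ± 0.28 in BO-112 and 9.66 ± 0.41 in Vehicle tumors (SD, n = 5 each), a 1.89-fold rise with an interval of 1.40 to 2.56 (limma adjusted p = 0.0277). This was the least stable of the 3 calls, kept in 5 of 10 fits that left out 1 mouse and lost without BO-112 mouse 1 or 3 or Vehicle mouse 2, 4 or 5 (adjusted p 0.0544 to 0.0733). The B-statistic of Lgals9 was -0.18.

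Tigit, Ctla4, Btla and Cd200r1 were below background on all 10 arrays, so no fold is given for them. Tigit, a receptor for nectins and nectin-like proteins, ranged from 4.13 to 5.02 in BO-112 and from 3.79 to 4.27 in Vehicle tumors. Ctla4, which competes with CD28 for B7 ligands, ranged from 4.26 to 5.13 in BO-112 and from 3.98 to 4.42 in Vehicle tumors. Neither passed the test (limma adjusted p = 0.127 for Tigit and 0.182 for Ctla4). Btla, a receptor for the TNF receptor family member HVEM, lay between 4.29 and 4.82 in BO-112 and between 4.33 and 4.47 in Vehicle tumors. Cd200r1, an inhibitory receptor of myeloid cells, lay between 4.48 and 5.93 in BO-112 and between 4.51 and 5.22 in Vehicle tumors. The limma adjusted p was 0.722 for Btla and 0.777 for Cd200r1. At this brightness the arrays could not show whether these transcripts were present.

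**Figure D2:**
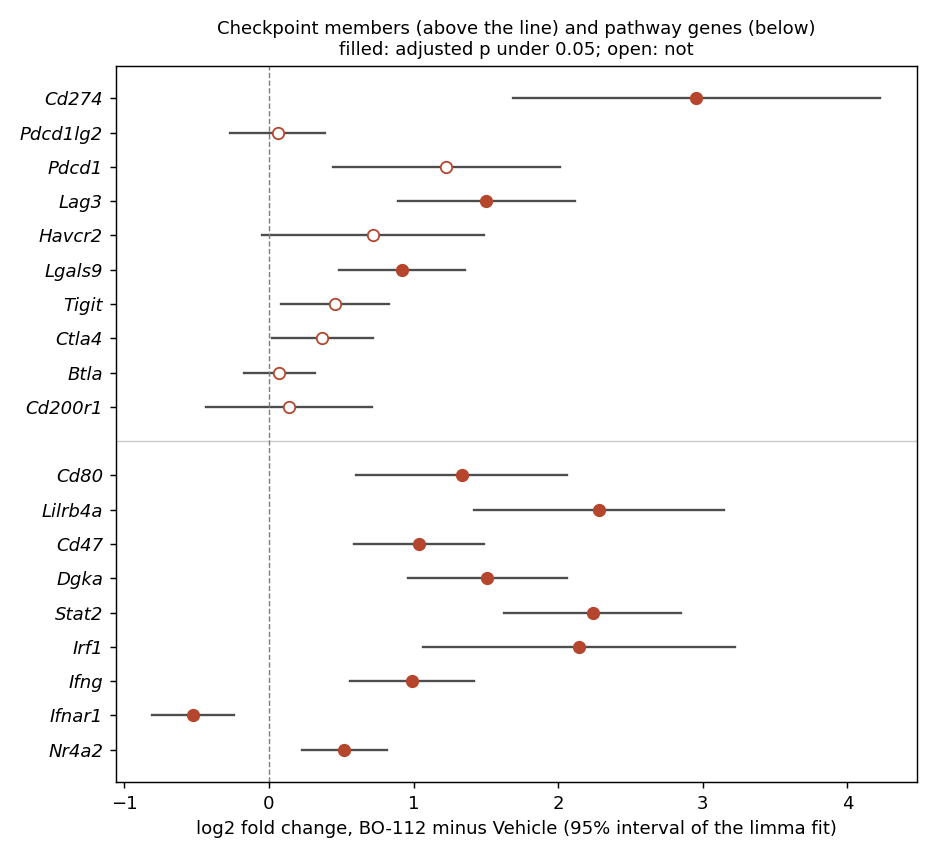
Log2 fold change, BO-112 minus Vehicle (horizontal axis), with the 95% interval of the limma fit for the 10 checkpoint genes (above the grey line) and the 9 called genes of the related lists (below it). Filled points have a limma adjusted p under 0.05. The estimates of Tigit, Ctla4, Btla and Cd200r1 rest on values below background, as does that of Havcr2 but for BO-112 mouse 5, and are no measured sizes. Pdcd1, Lag3, Cd80 and Ifng were under background on all Vehicle arrays, which limits the size of their estimates. Cd274 has the largest estimate of the plot, 2.96, and Ifnar1 is the single called gene below 0, at -0.52.

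The binding partners of these molecules were called about as often as all probe sets. Of 25 partner genes 1 was called higher and 0 lower, where 5.22% of all probe sets were called in either direction, and the median log2 fold change was 0.21. The called gene was Cd80, a B7 ligand shared by CTLA-4 and CD28 that also binds PD-L1. Cd80 stood at 6.32, 5.67, 6.65, 5.55 and 7.63 in BO-112 mice 1 to 5, and at 5.07, 4.91, 5.06, 5.33 and 4.79 in Vehicle mice 1 to 5, with 3 of 5 BO-112 and 0 of 5 Vehicle arrays above background. With the Vehicle arrays held at background, the lower bound for the means of Cd80 was 1.13-fold. Its log2 change was 1.33 (limma adjusted p = 0.0439). The call of Cd80 was kept only without BO-112 mouse 2, 4 or 5, and in the other 7 fits that left out 1 mouse the limma adjusted p was 0.0723 to 0.107.

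Genes named next were picked for their role after their values were seen. The MHC class II genes, whose products LAG-3 binds, had log2 fold changes of 0.23 for H2-Aa, -0.40 for H2-Ab1 and -0.10 for H2-Eb1. H2-Aa ran from 7.73 to 9.40 in BO-112 and from 7.00 to 10.28 in Vehicle tumors, so Vehicle mouse 1 exceeded every BO-112 tumor. Of the nectin family genes whose products bind TIGIT, Pvr gave -0.12, Nectin2 0.10 and Nectin4 0.49 (limma adjusted p = 0.211). Nectin3 averaged 6.76 ± 0.88 in BO-112 and 7.77 ± 0.40 in Vehicle tumors (SD, n = 5 each, limma adjusted p = 0.122), the lowest estimate of the 25 partner genes, and Nectin4 was under background on all Vehicle arrays. Tnfrsf14, which encodes HVEM, gave 0.67 (limma adjusted p = 0.0841). Hmgb1, a nuclear protein that also binds TIM-3, gave -0.35 (limma adjusted p = 0.0696), and Cd200, the ligand of the CD200 receptor, gave 0.21. Cd86, which encodes a further B7 ligand, gave 0.82 (limma adjusted p = 0.0902). Cd28 gave 0.61 (limma adjusted p = 0.0678). Both were above background on 1 of 5 BO-112 and 0 of 5 Vehicle arrays, so these are no measured sizes. None of the genes named in this paragraph passed the test.

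Inhibitory receptors and ligands outside the 10 were called higher in 2 of 24 cases and lower in 0, against 2.43% and 2.79% of all probe sets (median 0.30, against 0.01). Lilrb4a, an inhibitory receptor of myeloid cells and activated lymphocytes, stood at 10.67, 10.82, 11.51, 10.20 and 12.39 in BO-112 mice 1 to 5, and at 9.23, 9.31, 8.99, 8.80 and 7.84 in Vehicle mice 1 to 5. The groups were apart, and the log2 fold change of Lilrb4a was 2.28 (SE 0.39, limma adjusted p = 0.0115), called in 10 of 10 fits that left out 1 mouse. Paralogs of this receptor family are close in sequence and may share probes. Cd47, whose product restrains phagocytes through SIRP alpha, averaged 10.75 ± 0.41 in BO-112 and 9.71 ± 0.31 in Vehicle tumors (SD, n = 5 each), a log2 change of 1.04 (limma adjusted p = 0.0193). It was 0.0503 to 0.0548 without Vehicle mouse 2, 3, 4 or 5.

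Downstream of the receptors, 1 of 10 signalling genes was called higher and 0 lower, against 2.43% and 2.79% of all probe sets (median 0.47, against 0.01). It was Dgka, a diacylglycerol kinase that damps T cell receptor signalling, which lay between 7.18 and 8.70 in BO-112 tumors, and between 6.15 and 6.96 in Vehicle tumors. All BO-112 tumors were above all Vehicle tumors, and the log2 fold change of Dgka was 1.51 (SE 0.25, limma adjusted p = 0.0101). Among 11 transcription and surface factors linked to T cell exhaustion, 1 was called higher and 0 lower (median 0.25), beside the same shares of all probe sets. This was Nr4a2, an orphan nuclear receptor, with a log2 change of 0.52 (limma adjusted p = 0.0477), and its call was kept in 1 of 10 fits that left out 1 mouse, that without BO-112 mouse 4 (adjusted p otherwise 0.0633 to 0.117).

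Among 15 genes of the interferon axis that acts on PD-L1, 3 were called higher and 1 lower, against 2.43% and 2.79% of all probe sets (median 0.46, against 0.01). Stat2, a subunit of the type I interferon transcription complex, averaged 10.35 ± 0.26 in BO-112 and 8.11 ± 0.67 in Vehicle tumors (SD, n = 5 each), a log2 change of 2.24 (limma adjusted p = 0.00355). Irf1, a transcription factor induced by IFNγ, read 10.83, 10.78, 11.05, 10.95 and 11.25 in BO-112 mice 1 to 5, and 10.48, 7.98, 9.96, 8.08 and 7.64 in Vehicle mice 1 to 5. As for Cd274, Vehicle mice 1 and 3 were high and the BO-112 tumors lay close together. The log2 fold change of Irf1 was 2.14 (limma adjusted p = 0.0344), and of 10 fits that left out 1 mouse the call was kept in 3, those without BO-112 mouse 4 or Vehicle mouse 1 or 3 (adjusted p otherwise 0.0543 to 0.088). Ifng rose by 0.99 on the log2 scale (limma adjusted p = 0.0193) but was above background on 2 of 5 BO-112 and 0 of 5 Vehicle arrays, and the adjusted p of Ifng was 0.0554 to 0.056 without Vehicle mouse 2, 3 or 5. Ifnar1, a subunit of the type I interferon receptor, fell by 0.52 on the log2 scale (limma adjusted p = 0.0431), a call kept without BO-112 mouse 3 or 4 but in none of the other 8 such fits (adjusted p 0.0563 to 0.109). Over these 5 lists 8 of 85 genes were called higher and 1 lower, where 2.43% and 2.79% of all probe sets were.

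The genes whose pattern was most like that of each called checkpoint gene were sought among 19166 named genes, by the root mean square difference over the 10 arrays after the gene's own Vehicle mean was subtracted. For Cd274 they were Ifit3b (0.211), Ifit3 (0.238) and Gbp3 (0.294), all of them interferon-induced genes. Ifit3 and Ifit3b are close paralogs and may share probes, so they need not be separate measurements. In Vehicle mice 1 to 5 Ifit3b stood at 10.49, 8.72, 10.24, 8.19 and 7.57, with mice 1 and 3 high. For Lag3 they were Prf1 (0.186), which encodes perforin, Apobec3 (0.222), an antiviral deaminase, and Creb5 (0.293), a transcription factor. Prf1 stood at 6.26, 6.36, 7.24, 6.36 and 7.34 in BO-112 mice 1 to 5, and at 5.54, 4.89, 5.21, 5.07 and 5.34 in Vehicle mice 1 to 5, where it was under background on all 5 arrays. For Lgals9 they were Parp3 (0.181), a poly(ADP-ribose) polymerase, Mlkl (0.182), the effector of necroptosis, and Lgals3bp (0.188), a glycoprotein that binds galectin-3. This likeness includes the difference between the groups and is a description without a test.

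**Figure D3:**
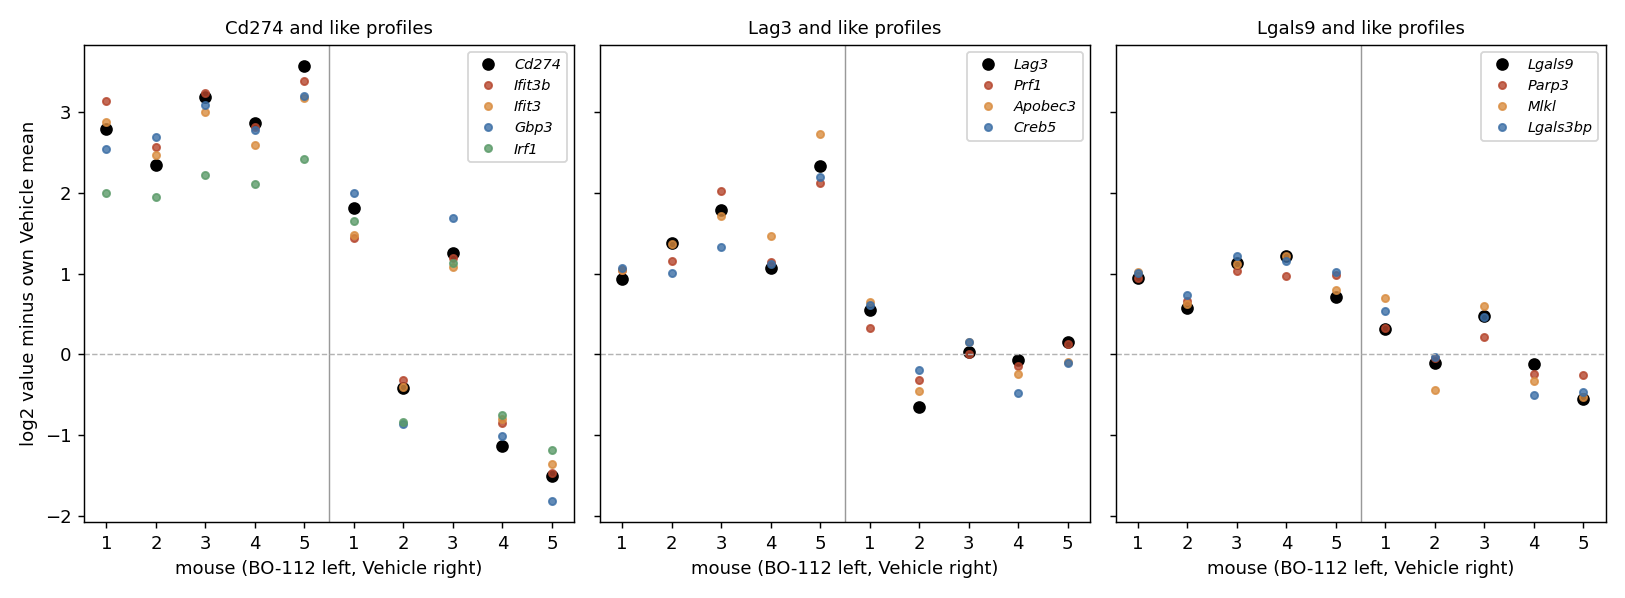
Log2 value minus the gene's own Vehicle mean (vertical axis) by mouse (horizontal axis, BO-112 left of the line and Vehicle right of it) for Cd274, Lag3 and Lgals9 (black) and the 3 genes of most similar pattern, with Irf1 added for comparison. In the Cd274 panel Vehicle mice 1 and 3 lie above the other Vehicle mice for all 5 genes.

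The tumors of a group differed among themselves. BO-112 mouse 5 was the highest BO-112 tumor for 9 of the 10 checkpoint genes, all but Lgals9, and for 26.9% of all probe sets. Of the 9, Tigit, Ctla4, Btla and Cd200r1 were under background in BO-112 mouse 5, as on every array. In this tumor the T cell score (mean of 12 T cell markers) was 8.21, against 6.20 to 6.77 in the other BO-112 tumors, the NK cell score was 7.47, against 5.33 to 6.54, and the myeloid score was 8.23, against 6.71 to 7.39. Its muscle score and array contrast also stood apart, as given above, and the part of these in its checkpoint values was not tested. Without BO-112 mice 2 and 5, the same 3 genes were called, with log2 fold changes of 2.95 for Cd274, 1.26 for Lag3 and 1.10 for Lgals9, and that of Pdcd1 was 0.73. Vehicle mouse 1 was the highest Vehicle tumor for 5 of 10 checkpoint genes, against 19.0% of all probe sets. Of these, Cd274 alone was above background there. Vehicle mice 1 and 3 were the highest Vehicle pair for 3 of 10, Cd274, Lgals9 and Tigit (under background), and for 7 of 15 genes of the interferon axis, where 12.2% of all probe sets had this order.

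PD-1, LAG-3, TIM-3, TIGIT and CTLA-4 are best known from T cells, so the transcript of each was also read against the T cell markers of the same array. Of these 12 markers 4 were called higher and 0 lower (against 2.43% and 2.79% of all probe sets), 7 were higher at an unadjusted p under 0.05 (against 10.9%), 11 exceeded background on some array, and their score was 6.81 ± 0.83 in BO-112 and 5.59 ± 0.27 in Vehicle tumors (SD, n = 5 each), without overlap. Of 6 NK cell markers 1 was called higher, Il2rb (against 2.43% of all probe sets), while 6 of 6 were higher at an unadjusted p under 0.05 (against 10.9%). Ncr1, Klrb1c, Klrk1, Klrd1 and Klre1 were under background on 5 of 5 Vehicle arrays and above it on 1 or 2 of 5 BO-112 arrays. The median log2 fold change of the NK cell markers, 0.99, is therefore no measured size. Of 6 markers of regulatory T cells 0 were called by limma, against 2.43% of all probe sets called higher. All 6 had a positive estimate (median 0.37), and 2 were higher at an unadjusted p under 0.05 (against 10.9%). With so few markers, no absence of change is read from this. The 4 B cell markers were below background on all arrays. The T cell score was higher in every BO-112 tumor than in any Vehicle tumor (two-sided exact permutation p = 0.00794).

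The Vehicle side of these comparisons is limited by background: Pdcd1, Lag3, Havcr2, Tigit and Ctla4 were under it on 5 of 5 Vehicle arrays, and so were Cd3d, Cd3g, Cd2, Cd4, Cd6, Zap70 and Themis of the score. The differences between receptor and score therefore have no measured size. For Pdcd1 minus the T cell score the two-sided exact permutation test gave p = 0.968. For Lag3 minus the score it gave p = 0.214 (adjusted 0.257), and the adjusted p was 0.0286 without BO-112 mouse 5 (exact permutation). With Vehicle values at background, these tests do not show that Pdcd1 or Lag3 moved with the T cell markers, nor that they did not. In BO-112 tumors alone, where both receptors were above background on 4 and 5 of 5 arrays, Pdcd1 minus the score was 0.11 ± 0.17 and Lag3 minus the score was 0.16 ± 0.34 (SD, n = 5). Background limits the score there too: Zap70 was above it on 0, Cd2 and Cd6 on 1, Cd4 on 2 and Cd3d on 3 of 5 BO-112 arrays. Probe sets differ in brightness, so nothing is read from how near these differences lie to 0. For Havcr2, Tigit and Ctla4 the adjusted p was 0.0238 each (exact permutation, lower against the score in BO-112). Tigit and Ctla4 were under background on every array and Havcr2 on all but 1 of the 10, so nothing is read from this about the receptors.

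**Figure D4:**
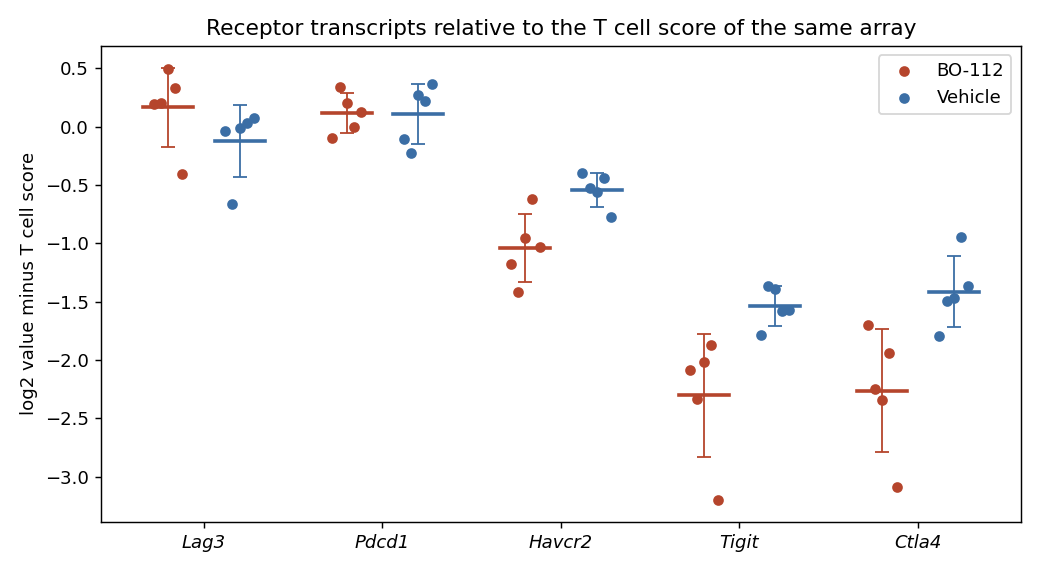
Log2 value of 5 receptor transcripts minus the T cell score of the same array (vertical axis), in BO-112 (red, left) and Vehicle (blue, right) tumors, 1 point per mouse with mean ± SD (n = 5). The groups overlap for Lag3, Pdcd1, Havcr2 and Ctla4, and do not overlap for Tigit. All 5 receptors were under background on the 5 Vehicle arrays, so the distances between the groups are not measured sizes.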

How the data were processed

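Clariom S Mouse arrays were hybridized with total tumor RNA. The authors normalized the arrays with RMA (version not given in the sources used here) and deposited log2 values, 1 per probe set and array. RMA draws dim probe sets toward a floor and removes a shift shared by most transcripts. The titles of the samples gave the groups and the mouse numbers.

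Of 29129 probe sets, 6923 controls were set aside. The filter of the study, a value above 4 in 3 or more arrays of BO-112 or of Vehicle, kept 21792 of 22206 transcript probe sets, a number that differs from the one the study's methods state. Of the 21792, 19239 had 1 gene symbol and 2553 none. Gene names came from the platform table and promoter windows from RefSeq (GRCm38.p6). The probe sets' own build: not given in the sources used here.

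Probe sets were fitted with limma 3.58.1 in R 4.3.3 with group as the only term and moderated by eBayes, and adjusted p-values are limma's unless an exact permutation test is named. A score is the mean log2 value of a marker list. Intervals are 95%. The number of arrays, 5 per group, limits the precision. The code was tested on simulated data. Alternatives were the filter, median centring, quantile normalization, variance trend, array weights, mouse number as a block, leaving out mice, array contrast or muscle and skin scores as covariates, and B over 0. The members, gene lists and tests were chosen with earlier results of these data known. Named genes were the 10 members, up to 4 called genes of each list, and 3 genes of most similar pattern per called member. Uncalled partner genes were named in addition, picked for their role after their values were seen. List genes with no named tested probe set were not analysed here.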

Additional observations from a re-analysis of the deposited data

Results flagged for a closer look

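Within groups of 5, a value was singled out where the gap between the extreme mouse and its nearest neighbour took more than 0.71 of the whole range, which chance gives in about 1 of 20 groups. Of 38 groups examined 4 were singled out, and 1 of these was among the 20 groups of checkpoint genes. Havcr2 was 5.66 in Vehicle mouse 1, where the other Vehicle tumors lay between 4.77 and 4.95, all under background. Dgka was 6.96 in Vehicle mouse 1, with the other Vehicle tumors between 6.15 and 6.38. Ifnar1 was 9.06 in Vehicle mouse 3, with the other Vehicle tumors between 8.72 and 8.80. Nr4a2 was 7.75 in BO-112 mouse 5, with the other BO-112 tumors between 7.21 and 7.36.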

How the results depend on the processing

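Of the checkpoint genes 3 were called higher. The number was 0 with the array contrast as a covariate (3 at an unadjusted p under 0.05) and 5 with muscle and skin scores as covariates (Pdcd1 and Havcr2 added). With these scores the higher calls of the 5 lists also rose, from 8 to 16, and the count over all probe sets is not given here. Nothing is therefore read from that rise about the checkpoint genes, and Havcr2 was above background on 1 array only. With 1 mouse left out, 1 to 4 checkpoint genes were called higher, with 1 without Vehicle mouse 2 or 4. With the array contrast the log2 fold changes were 2.43 for Cd274, 1.13 for Lag3 and 0.999 for Lgals9 (limma adjusted p 0.276, 0.248 and 0.203); the cause was not tested. Over all probe sets, 529 higher and 609 lower calls became 443 and 845 with median centring, 21 and 6 with the array contrast, 267 and 208 at B over 0, 860 higher with array weights, and 332 lower without BO-112 mice 2 and 5. Leaving out 1 mouse gave 211 to 1248 higher and 135 to 1886 lower, the highest without BO-112 mouse 4. In the 5 lists, 8 higher calls became 13 with array weights, 0 with the array contrast, 16 with the muscle and skin scores, 5 at B over 0 and 3 to 14 with 1 mouse left out. The 1 lower call became 2 at a mean above 6, with median centring or with the muscle and skin scores, 0 with a variance trend, without BO-112 mice 2 and 5, with the array contrast or at B over 0, and 0 to 6 with 1 mouse left out. Mouse numbers were not taken as pairs, and 1 of 5 BO-112 arrays correlated best with the Vehicle array of its own number. So small a check cannot decide whether arrays of the same number shared anything. With the mouse number as a replicate block the limma calls were 0 checkpoint genes (5 at an unadjusted p under 0.05), 75 higher and 27 lower probe sets, and 1 higher and 0 lower in the lists. Of the 6 differences within arrays, only Lag3 minus the T cell score changed its side of the threshold, without BO-112 mouse 5 (0.43), and it ranged from 0.15 to 0.43 with 1 mouse left out, on Vehicle values under background. Each checkpoint gene had 1 probe set, so averaging probe sets gave no other value. Dim probe sets limit Tigit, Ctla4, Btla and Cd200r1, and most values of Havcr2.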
